A study of Mus musculus with 7 samples.

Results

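Peaks of 5-methylcytosine (5mC) and 5-hydroxymethylcytosine (5hmC) were examined at 45 mouse genes of the nuclear receptor superfamily. The genes were chosen by family membership: 18 belong to subfamily NR1, 12 to NR2, 8 to NR3, 3 to NR4, 2 to NR5, 1 to NR6 and 1 to NR0. A peak was assigned to a gene when the authors had given it that gene's symbol, or when it shared at least 1 bp with the gene body or with the 5000 bp upstream on the mouse genome build GRCm38. By this rule 16 of the 45 genes had a peak in at least 1 of 4 peak lists, and 30 peaks were assigned in all. The same rule was applied to 21951 protein-coding genes as a background.

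The DNA came from ATDC5, a mouse chondroprogenitor line derived from a teratocarcinoma, which differentiates into chondrocytes under insulin, transferrin and selenite. The labels give 7 samples and name no genetic change or drug. The chondroprogenitor stage at day 0 is represented by 1 input and 1 5mC-enriched sample, and differentiating chondrocytes by 1 5mC-enriched sample of day 10 and by 2 5hmC-enriched samples each of day 5 and day 10. There was 1 peak list for each enriched group, with 326 peaks (5mC, day 0), 2401 peaks (5mC, day 10), 2058 peaks (5hmC, day 5) and 4164 peaks (5hmC, day 10). The 2 samples of each 5hmC group had been merged, so no list has a replicate and no comparison below carries a test of biological spread. ATDC5 is a single cell line, and the lists hold no expression values, so the stage of the cells and the transcription of the receptors could not be read from them. The study's text assigns other days and stages to some profiles than the labels do, and the days given here are those of the labels. Whether a label is wrong was not tested.

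Nuclear receptors are transcription factors with a zinc finger DNA-binding domain and, in most members, a pocket for a small lipid-soluble ligand such as thyroid hormone, retinoic acid, vitamin D or a steroid. Many of them bind copies of AGGTCA, several as a dimer with a retinoid X receptor, and they recruit corepressors or coactivators to their targets. In cartilage, thyroid hormone is known to favour chondrocyte maturation, and retinoids and vitamin D act on the growth plate as well. 5mC is the methylated cytosine of CpG sites, and TET enzymes oxidise it to 5hmC, which is often found in introns and enhancers of active genes.

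Sequences of 9 peaks at these genes are given here because the results turn on them. They are the forward strand of GRCm38 in lower case with each CpG, the site that carries either mark, in capitals. Peaks of over 300 bp are shown as the 300 bp around their midpoint. The first 3 are day 10 5hmC peaks that lie inside a day 5 5hmC peak.
Thrb, 5hmC day 10, chr14:17989323-17989462: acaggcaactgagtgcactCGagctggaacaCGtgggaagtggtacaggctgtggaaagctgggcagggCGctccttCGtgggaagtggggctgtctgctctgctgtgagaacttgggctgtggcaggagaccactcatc
Pparg, 5hmC day 10, chr6:115396974-115397273: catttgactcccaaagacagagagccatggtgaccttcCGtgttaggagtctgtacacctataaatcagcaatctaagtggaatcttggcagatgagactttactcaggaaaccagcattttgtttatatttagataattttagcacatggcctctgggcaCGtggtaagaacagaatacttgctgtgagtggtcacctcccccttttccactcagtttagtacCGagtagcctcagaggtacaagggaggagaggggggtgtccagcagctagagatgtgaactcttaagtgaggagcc
Rxra, 5hmC day 10, chr2:27758128-27758427: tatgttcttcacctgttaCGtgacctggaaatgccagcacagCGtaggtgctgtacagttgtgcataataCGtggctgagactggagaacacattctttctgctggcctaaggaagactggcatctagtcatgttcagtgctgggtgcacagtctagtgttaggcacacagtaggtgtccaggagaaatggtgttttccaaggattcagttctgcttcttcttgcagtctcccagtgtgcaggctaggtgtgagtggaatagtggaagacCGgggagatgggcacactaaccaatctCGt
The next sequence is the 5mC peak over a coding exon of Thra, and the one after it is a 5hmC peak of Vdr, of whose 3 AGGTCA strings 2 lie in the printed bases.
Thra, 5mC day 10, chr11:98756896-98757195: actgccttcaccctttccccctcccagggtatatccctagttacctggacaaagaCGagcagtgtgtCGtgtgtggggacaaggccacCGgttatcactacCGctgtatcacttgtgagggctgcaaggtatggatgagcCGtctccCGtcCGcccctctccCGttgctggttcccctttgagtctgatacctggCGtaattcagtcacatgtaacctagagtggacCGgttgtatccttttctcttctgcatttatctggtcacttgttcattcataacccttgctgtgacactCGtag
Vdr, 5hmC day 5, chr15:97871493-97871792: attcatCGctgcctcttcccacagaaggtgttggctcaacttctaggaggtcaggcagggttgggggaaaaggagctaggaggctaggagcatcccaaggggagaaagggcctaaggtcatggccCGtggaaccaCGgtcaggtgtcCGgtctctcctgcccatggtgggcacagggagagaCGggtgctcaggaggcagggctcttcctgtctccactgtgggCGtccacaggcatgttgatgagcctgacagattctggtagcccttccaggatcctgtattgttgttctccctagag
The last 4 are day 10 5hmC peaks. They are the most CpG-rich peak (Rarb), a peak whose flanks held no CpG (Nr3c2), the peak nearest to the start of its gene (Esr1) and a peak without any CpG (Rora).
Rarb, 5hmC day 10, chr14:16519679-16519805: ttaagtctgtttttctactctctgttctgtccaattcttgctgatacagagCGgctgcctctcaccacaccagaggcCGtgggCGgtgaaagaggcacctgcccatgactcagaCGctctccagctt
Nr3c2, 5hmC day 10, chr8:77024565-77024792: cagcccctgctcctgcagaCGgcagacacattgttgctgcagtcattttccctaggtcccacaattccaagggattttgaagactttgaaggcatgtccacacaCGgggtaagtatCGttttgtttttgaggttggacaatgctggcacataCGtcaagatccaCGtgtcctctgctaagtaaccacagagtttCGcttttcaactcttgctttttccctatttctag
Esr1, 5hmC day 10, chr10:4618835-4618946: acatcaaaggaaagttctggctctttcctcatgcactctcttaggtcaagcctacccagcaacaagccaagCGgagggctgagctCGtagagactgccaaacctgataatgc
Rora, 5hmC day 10, chr9:69339379-69339500: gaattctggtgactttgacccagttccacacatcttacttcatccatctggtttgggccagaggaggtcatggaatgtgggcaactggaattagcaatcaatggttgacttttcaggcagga

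5hmC was listed at more receptor genes than 5mC was. A 5hmC peak lay at 12 of the 45 genes and a 5mC peak at 6, and both marks were listed at 2 genes, Rarb and Rora. The marks were listed at different limits of enrichment, 3-fold for 5mC and 10-fold for 5hmC, so these counts do not compare their amounts. The share of protein-coding genes with each mark at either day was not counted. By list, 1157 protein-coding genes had 5hmC at day 5 and 1826 at day 10, and 122 had 5mC at day 0 and 1474 at day 10. At day 10, which had lists of both marks, more protein-coding genes were thus listed for 5hmC as well. At day 5, 9 genes had a 5hmC peak (20%, 95% Wilson interval 10.9% to 33.8%), beside 5.27% of protein-coding genes. At day 10, 7 genes had one (15.6%, interval 7.75% to 28.8%), beside 8.32%. For 5mC, 2 genes had a peak at day 0 (4.44%, interval 1.23% to 14.8%), beside 0.556%, and 4 genes at day 10 (8.89%, interval 3.51% to 20.7%), beside 6.71%. Over all lists 16 genes had a peak (35.6%, interval 23.2% to 50.2%), beside 15.9%. The intervals cover counting error only, and the depth of the libraries is unknown.

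Gene length moved with these counts. The median span was 49.2 kb for the 45 receptor genes and 17.4 kb for protein-coding genes, and a longer gene can hold more peaks. The protein-coding genes were then weighted to the receptors' spans in 5 classes, the last holding all genes over 200 kb. The background became 1.15% (5mC, day 0), 11.0% (5mC, day 10), 9.24% (5hmC, day 5) and 14.9% (5hmC, day 10). After this weighting the background lay below the interval of the receptor genes for day 5 5hmC and for day 0 5mC, and inside it in both day 10 lists. The day 0 5mC count rests on 2 genes. The background of 15.9% for a peak in any list was not weighted. In peaks per Mb of gene body and upstream window, receptor genes had 2.09 (exact Poisson interval 1.04 to 3.74) for day 5 5hmC and 2.47 (1.32 to 4.23) for day 10 5hmC. All protein-coding genes had 1.16 and 2.26 per Mb. For 5mC at day 0 receptor genes had 0.380 per Mb (interval 0.0461 to 1.37), beside 0.103. At day 10 they had 0.761 (0.207 to 1.95), beside 1.57. By density the background lay inside the interval in all 4 lists. The difference for day 5 5hmC and day 0 5mC thus depended on the measure.

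**Figure D1:**
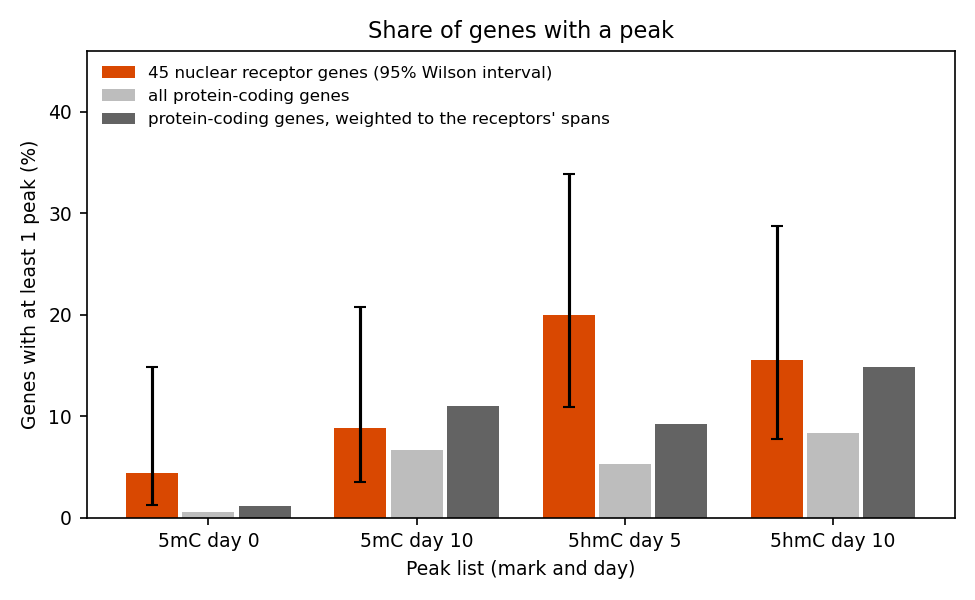
Share of genes with at least 1 peak (%) in each of the 4 peak lists, for the 45 nuclear receptor genes with the 95% Wilson interval, for 21951 protein-coding genes, and for protein-coding genes weighted to the receptors' gene spans. At day 5 the receptor genes reach 20% for 5hmC beside 5.27% and, weighted, 9.24%, while at day 10 the weighted share of 14.9% is close to the receptors' 15.6%.

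Within the family the genes with a peak were the longer ones. Their median span was 84.7 kb, and that of the 29 genes without a peak was 22.6 kb. Of 7 genes over 200 kb, 6 had a peak (Rora, Esrrg, Esr1, Rarb, Thrb and Nr3c2), and the orphan receptor Nr6a1, at 204.3 kb, had none. Of 12 genes under 20 kb only Nr1h3 had one. For these counts over all lists no share of protein-coding genes of the same length was taken, and the shares below are by list. In the class over 200 kb, day 10 5hmC was listed at 5 of 7 receptor genes (71.4%), beside 36.4% of protein-coding genes of that length. Day 5 5hmC was listed at 3 of 7 (42.9%), beside 23.6%. In the class of 50 to 100 kb, day 5 5hmC was listed at 3 of 9 receptor genes (33.3%), namely Vdr, Rxra and Nr2c2, beside 9.50%. In that class day 10 5hmC was listed at 1 of 9 (11.1%), beside 15.2%. Between 100 and 200 kb, Pparg was the only receptor gene of 6 with a peak, which is 16.7% for each 5hmC list, beside 15.3% at day 5 and 28.9% at day 10. Between 20 and 50 kb, day 10 5hmC was listed at 0 of 11 (beside 6.64%) and day 5 5hmC at 1 of 11 (9.09%, beside 4.78%). Under 20 kb, day 10 5hmC was listed at 0 of 12 (beside 2.61%) and day 5 5hmC at 1 of 12 (8.33%, beside 1.77%). For day 10 5hmC the receptor genes were thus above the background in the longest class and below it in the other 4, and for day 5 5hmC they were above it in all 5, with 1 to 3 genes in each.

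By subfamily, 10 of 18 NR1 genes, 3 of 12 NR2 genes and 3 of 8 NR3 genes had a peak. Over all protein-coding genes the share was 15.9%. None of the 7 genes of NR4, NR5, NR6 and NR0 had one, among them Nr4a1, Nr4a2 and Nr4a3, immediate-early genes, and Nr5a1, the steroidogenic factor SF-1. With 7 genes, a count of 0 is not far from that share. The median span was 51.7 kb in NR1, 31.5 kb in NR2, 134.7 kb in NR3 and 21.9 kb in the last 7 genes, so subfamily and gene length cannot be told apart. 5mC was listed at 5 NR1 genes, 1 NR2 gene and no NR3 gene.

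**Figure D2:**
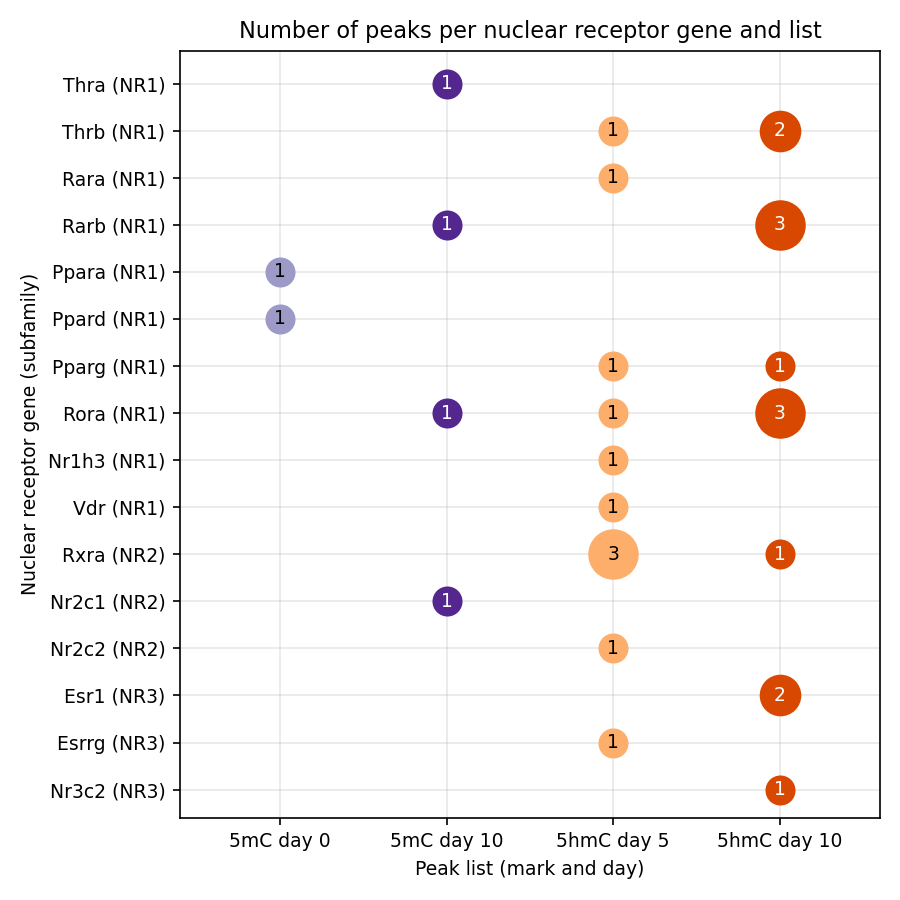
Number of peaks (in the circles, whose area follows it) for each nuclear receptor gene with a peak, by mark and day; the subfamily is in parentheses. Thrb, Pparg, Rora and Rxra have 5hmC in both day columns. No gene has 5mC in both, and only 2 genes have it at day 0.

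The thyroid hormone receptor genes were listed for different marks, at the unlike limits of enrichment given above. Thra, which encodes the receptor alpha, had 1 peak, of 5mC at day 10 (chr11:98756665-98757426, 762 bp). It covered the whole of coding exon 3 of 9 (101 bp), which encodes the first zinc finger of the DNA-binding domain by its cysteine pattern. The peak held 20 CpG sites, or 2.62 per 100 bp, and its flanks held 1.25 per 100 bp. Thrb, which encodes the receptor beta, had no 5mC peak and 3 peaks of 5hmC, all in introns. The day 5 peak (chr14:17989021-17989919, 899 bp) enclosed a day 10 peak of 140 bp (chr14:17989323-17989462), the first sequence above. The day 10 peak held 4 of the 6 CpG sites of the day 5 peak. A second day 10 peak (chr14:17906946-17907152, 207 bp) lay 81869 bp from the day 5 peak. The noncoding gene Gm48321 overlaps the first pair of peaks, and these peaks may equally be assigned to it.

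Of the retinoic acid receptor genes, Rara had 1 peak of 5hmC at day 5 (chr11:98949492-98950982, 1491 bp). It covered coding exon 1 of 8 (178 bp), which holds the start codon, and held 25 CpG sites, at 1.68 per 100 bp beside 1.54 in its flanks. Its sequence is not printed because it holds untranslated bases. Rarb, which retinoic acid itself induces, had 5mC at day 10 in an intron near its start (chr14:16794996-16796197, 1202 bp) and 3 day 10 5hmC peaks further into the gene. These were chr14:16681843-16682025 (183 bp), chr14:16598095-16598235 (141 bp) and chr14:16519679-16519805 (127 bp), in the order of transcription. The last of them had 3.15 CpG sites per 100 bp, the highest value among the 30 peaks, beside 0.787 in its flanks. The nearest 5hmC peak lay 112971 bp from the 5mC peak. Only that last 5hmC peak carries the symbol Rarb in its list. The other 3 peaks lie inside 2 of the 4 protein-coding transcripts that the annotation gives Rarb, so their assignment rests on the long transcripts. Rarg, the other gene of this group and one expressed in cartilage, had no peak.

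Each gene of the peroxisome proliferator-activated receptors had a peak, but not of the same mark or day. Day 0 had a list for 5mC only and day 5 for 5hmC only, so the marks cannot be compared at these days. Ppara and Ppard, receptors for fatty acids, held the only 5mC peaks of day 0 at these genes. That of Ppara (chr15:85756829-85757614, 786 bp) lay in an intron and was 31.8% repeat sequence. That of Ppard (chr17:28293138-28293614, 477 bp) was 54.5% repeat sequence and covered a noncoding exon with a transcript start of the gene, 60676 bp into its span. It held 2 CpG sites, at 0.419 per 100 bp beside 2.31 in its flanks. In the day 0 list as a whole the median peak was 78.7% repeat. Pparg, the receptor that directs fat cell differentiation, had 5hmC at both days and no 5mC. Its day 5 peak (chr6:115396722-115397467, 746 bp) enclosed its day 10 peak (chr6:115396934-115397313, 380 bp) in the same intron.

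Rora, which encodes an activator in the circadian clock, is the longest gene of the family at 734.5 kb and had the most peaks, 5. Its 5mC peak of day 10 (chr9:69378510-69379694, 1185 bp) covered the last of 11 coding exons (162 bp) and part of the 3′ untranslated region. It held 34 CpG sites, at 2.87 per 100 bp beside 1.10 in its flanks. Its 5hmC peaks were intronic. The day 5 peak (chr9:69325841-69326354, 514 bp) had 2.53 CpG sites per 100 bp, the highest value of the 11 day 5 peaks. The day 10 peaks (chr9:68900473-68900575, 103 bp; chr9:69259589-69259717, 129 bp; chr9:69339379-69339500, 122 bp) did not overlap it, and the nearest was 13025 bp away. That nearest peak held no CpG, as did 6.56% of the peaks in its list, and it lay 39010 bp from the 5mC peak. The peaks at chr9:68900473-68900575 and chr9:69259589-69259717 each lay inside only 1 of the 2 protein-coding transcripts of Rora. Rorb, at 180.6 kb, had no peak, and neither had the clock repressors Nr1d1 and Nr1d2. The genes Thra and Nr1d1 overlap at their ends, and the 5mC peak of Thra lay 10506 bp beyond Nr1d1.

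Nr1h3 and Vdr completed the NR1 genes with a peak, each with 5hmC at day 5 only. Nr1h3, an oxysterol receptor of lipid metabolism also called LXR alpha, had an intronic peak (chr2:91187372-91188014, 643 bp) with 0.622 CpG sites per 100 bp beside 1.79 in its flanks. Vdr, the vitamin D receptor, had an intronic peak (chr15:97870915-97872370, 1456 bp) with 25 CpG sites, at 1.72 per 100 bp beside 1.27. It lay inside 1 of the 5 protein-coding transcripts of Vdr. The remaining NR1 genes (Nr1h2, Nr1h4, Nr1i2 and Nr1i3), which encode another oxysterol receptor, the bile acid receptor and receptors for foreign compounds, had none.

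In NR2, Rxra, the shared dimer partner of thyroid hormone, retinoic acid, vitamin D and fatty acid receptors, had 4 peaks, all of 5hmC. At day 5 it had an intronic peak 11607 bp into the gene (chr2:27687543-27688552, 1010 bp), another in an intron (chr2:27715295-27716042, 748 bp) and the third 81711 bp into the gene (chr2:27757677-27758625, 949 bp). The third covered coding exon 9 of 10 (106 bp), in the part of the gene that encodes the ligand-binding domain. The day 10 peak (chr2:27758113-27758441, 329 bp) lay inside the third one, in the intron next to that exon. Neither of the first 2 sites was listed at day 10. Rxrb and Rxrg had no peak in their windows, and a day 10 5hmC peak lay 1930 bp downstream of Rxrb, just outside.

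The testicular orphan receptor genes had 1 peak each, of a different mark and day, and day 5 had no 5mC list. Nr2c1 had an intronic 5mC peak at day 10 (chr10:94193800-94194688, 889 bp) with 1.69 CpG sites per 100 bp beside 0.844. Nr2c2 had an intronic 5hmC peak at day 5 (chr6:92102089-92102640, 552 bp) with 0.543 beside 0.181. No peak was listed at Hnf4a and Hnf4g, at the neural and retinal receptors Nr2e1 and Nr2e3, or at the COUP-TF genes Nr2f1, Nr2f2 and Nr2f6. Just outside the windows, a day 5 5hmC peak lay 2057 bp downstream of Nr2f6 and a day 10 5hmC peak 3990 bp downstream of Nr2e1.

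In NR3 the peaks were 5hmC peaks in introns of 3 long genes. Esr1, the oestrogen receptor alpha gene, had 2 at day 10. The first (chr10:4618835-4618946, 112 bp) was centred 7297 bp into the gene, the closest to a gene start of all 30, and the second (chr10:4943244-4943447, 204 bp) was 331752 bp into it. The first lay inside 2 of the 4 protein-coding transcripts of Esr1. Nr3c2, the mineralocorticoid receptor gene, had 1 at day 10 (chr8:77024565-77024792, 228 bp) with 6 CpG sites, at 2.63 per 100 bp, and flanks with none. Esrrg, an oestrogen-related orphan receptor gene, had 1 at day 5 (chr1:188077572-188078442, 871 bp) with 1.49 CpG sites per 100 bp beside 0.804. No peak was listed at Nr3c1, the glucocorticoid receptor gene, or at Esr2, Pgr, Esrra and Esrrb.

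The 2 days were compared for 5hmC at the genes listed at both. These were Thrb, Pparg, Rora and Rxra, 4 of 45 genes (8.89%), beside 2.54% of protein-coding genes, a share not weighted to the receptors' spans. A further 5 genes had 5hmC at day 5 only (Rara, Nr1h3, Vdr, Nr2c2 and Esrrg) and 3 at day 10 only (Rarb, Esr1 and Nr3c2). Of 21951 protein-coding genes, 1157 had 5hmC at day 5, 1826 at day 10 and 557 at both days. Most protein-coding genes of either day were thus listed at that day only. The same held for 5 of the 9 receptor genes of day 5, but for only 3 of the 7 of day 10. Among the 11 peaks of day 5, 3 shared bases with a peak of day 10 (27.3%, Wilson interval 9.75% to 56.6%), beside 29.6% of the 2058 day 5 peaks in all. Among the 13 peaks of day 10, 3 did so with a peak of day 5 (23.1%, interval 8.18% to 50.3%), beside 17.1% of 4164. Peak for peak, the overlap at receptor genes was thus near that of the lists. In each of the 3 pairs the day 10 peak lay wholly inside the day 5 peak, and it took up 15.6% of it at Thrb, 50.9% at Pparg and 34.7% at Rxra. The lists differed in width in the same direction. At receptor genes the median peak was 871 bp wide in the day 5 list and 141 bp wide in the day 10 list. Over all peaks of these lists it was 819 bp and 147 bp.

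**Figure D3:**
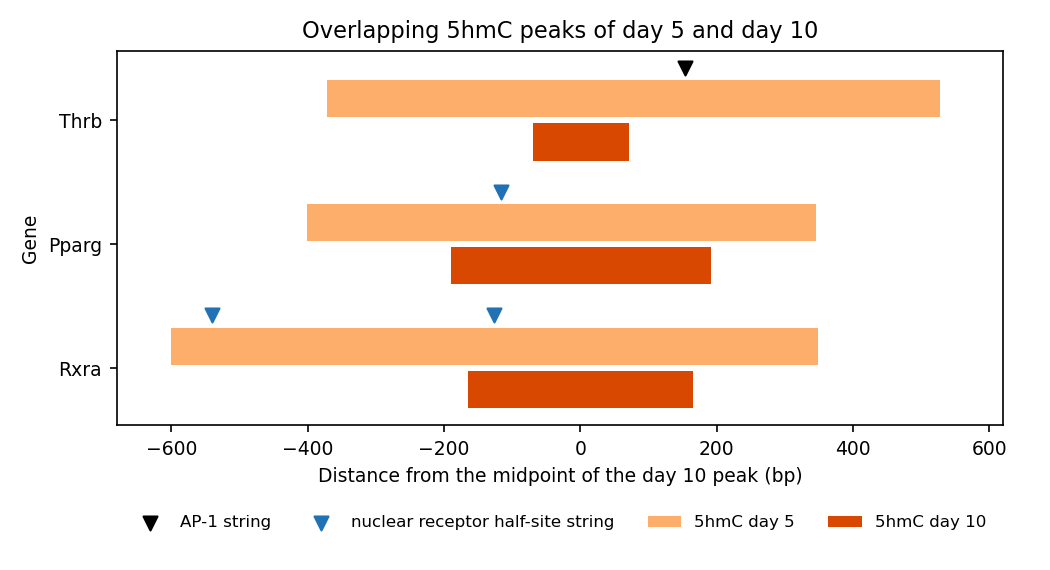
Day 5 and day 10 5hmC peaks at Thrb, Pparg and Rxra, drawn to scale by distance (bp) from the midpoint of the day 10 peak; triangles mark AGGTCA strings (the nuclear receptor half-site) and AP-1 strings in the day 5 peak. Each day 10 bar lies inside its day 5 bar, and 1 AGGTCA string falls within both bars at Pparg and at Rxra.

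Only at 2 genes, Rarb and Rora, could the marks overlap, and there their peaks did not. How often peaks of the marks overlap over the whole lists was not counted. Rarb and Rora had 5hmC and 5mC in the day 10 lists (2 of 45, 4.44%), beside 1.85% of protein-coding genes (not length-weighted). Their nearest pairs of peaks were 112971 bp and 39010 bp apart. The mark was 5mC alone at 4 genes (Thra, Ppara, Ppard and Nr2c1) and 5hmC alone at 10. For these counts no share of protein-coding genes was taken. No receptor gene had 5mC in both the day 0 and the day 10 list. Only 2 receptor genes and 0.556% of protein-coding genes had day 0 5mC, so little could be shared. The share of protein-coding genes in both 5mC lists was not counted.

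The peaks lay inside genes and away from their starts. Of 30 peaks, 25 were intronic, 4 covered coding exons (Thra and Rora for 5mC, Rara and Rxra for day 5 5hmC) and 1 a noncoding exon (Ppard). None was upstream, where 8.20% to 12.1% of the gene and peak pairs over all protein-coding genes fell. All 13 day 10 5hmC peaks were intronic, beside 74.7% of such pairs. Of the day 5 5hmC peaks 9 of 11 were, beside 61.2%, and of the day 10 5mC peaks 2 of 4, beside 39.3%. A single peak, that of Ppard, lay within 1000 bp of a transcript start, beside shares of 8.20% to 18.5% over all genes. Along the gene, 6 of 11 day 5 and 8 of 13 day 10 5hmC peaks had their midpoint past the middle of the span, beside 44.9% and 44.6%. The receptor genes with peaks were long, and a long gene has more intron, so the shares over all genes are not matched for length.

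**Figure D4:**
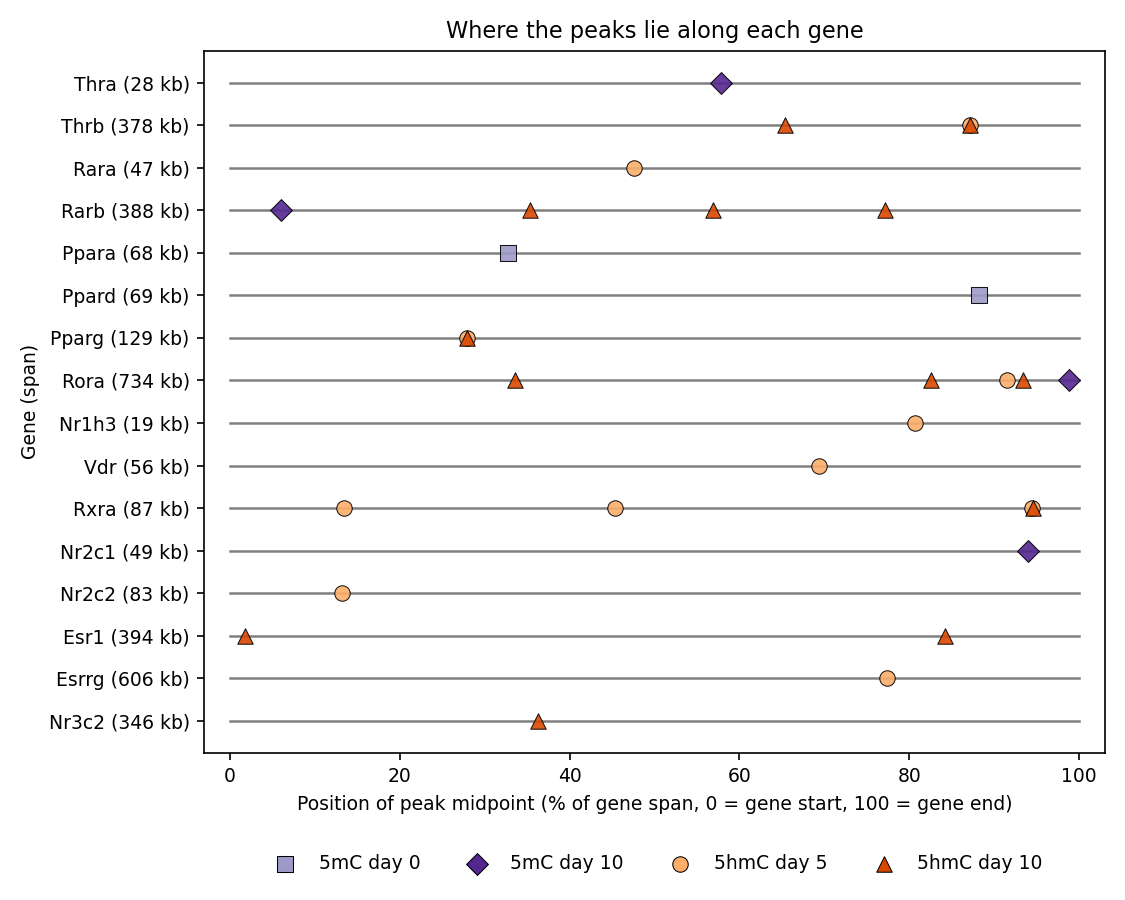
Position of each peak midpoint along its gene (% of the span, 0 at the gene start and 100 at the gene end) for the 16 genes with a peak, with the span in parentheses and the marker and colour giving mark and day. The points of day 5 and day 10 coincide at Thrb, Pparg and Rxra, and Esr1 holds the point nearest to a gene start.

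CpG content was compared with that of each list. The median at receptor genes was 2.16 CpG sites per 100 bp for day 10 5mC (list 2.42), 1.19 for day 5 5hmC (list 1.61), 1.79 for day 10 5hmC (list 1.80) and 0.719 for day 0 5mC (list 0.523). The day 5 5hmC median lay below the lower quartile of its list, 1.23, and the other 3 medians lay between the quartiles of theirs. All 4 day 10 5mC peaks had more CpG per 100 bp than their flanks, taken at the same width from 2000 bp beyond each edge, beside 90.2% of that list. For day 5 5hmC 8 of 11 did, beside 79.1%, for day 10 5hmC 9 of 13, beside 70.1%, and for day 0 5mC 1 of 2, beside 37.7%. The spread within a list was wide. Among day 10 5hmC peaks the value ranged from 0 at Rora to 3.15 at Rarb, and among day 5 peaks from 0.536 at Pparg to 2.53 at Rora.

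**Figure D5:**
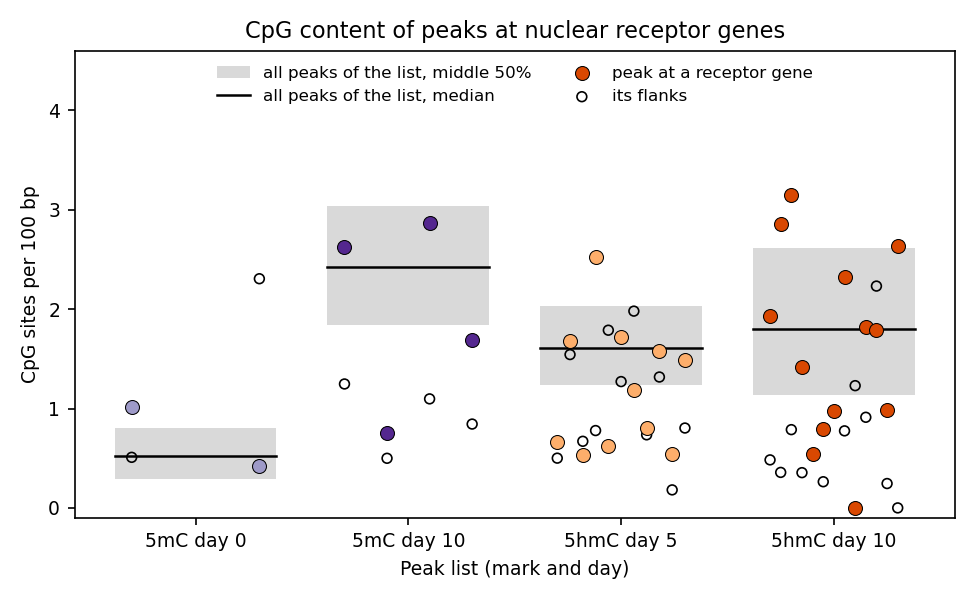
CpG sites per 100 bp in each peak at a nuclear receptor gene (filled points) and in its flanks (open points), by mark and day, over the median (line) and middle 50% (grey) of all peaks in that list. Of the 11 day 5 5hmC points 6 lie below the grey range, and the peak at 0 is the day 10 peak of Rora.

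The peaks were searched on both strands for strings that receptors of this family bind. AGGTCA, the core of most receptor sites, was in 6 of the 11 day 5 5hmC peaks, beside 42.9% of the list, and in 4 of the 13 day 10 peaks, beside 9.70%. It was in 1 of 4 day 10 5mC peaks (44.7%) and 1 of 2 day 0 peaks (25.5%). At Pparg (chr6:115397004-115397009) and Rxra (chr2:27758148-27758153) the same string lay in the peaks of both days. In the sequences printed above it can be read as aggtca or, on the other strand, tgacct. The Vdr peak held 3, the highest number. The widths of the lists differ. When 200 bp around each midpoint were searched instead, the string was in 2 of 13 day 10 5hmC windows (15.4%), beside 11.1% of that list, and in 3 of 11 day 5 windows (27.3%), beside 12.4%. For day 10 the distance from the list was thus smaller than in whole peaks, where it was 30.8% beside 9.70%.

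The AP-1 string TGACTCA, bound by Fos and Jun proteins, was in 5 of 11 day 5 5hmC peaks (list 43.1%), namely at Thrb, Nr1h3, Vdr, Rxra and Nr2c2. In the day 10 5hmC list it was in 3 of 13 (list 7.97%), a pair of peaks of Rarb and the second of Esr1, and in 200 bp windows also in 3 (list 9.29%). Longer strings were in none of the 30 peaks. These were AAAGGTCA (NR4A receptors) and TCAAGGTCA (SF-1 and oestrogen-related receptors), the direct repeats of AGGTCA known as DR1, DR4 and DR5, and the palindromic oestrogen and glucocorticoid response elements. All but the last of them contain AGGTCA. These longer strings were in 0% to 4.91% of the peaks of each list, and a missing string says only that these letters are not in the window.

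Genes that act with the receptors were counted by the same rule. Of 25 coregulators, which carry repression or activation from the receptor to chromatin, 6 had a peak (24%), beside 15.9% of protein-coding genes. 5mC at day 10 was listed at 4 of them (16%, beside 6.71%): the coactivator Ncoa3, the corepressors Ncor1 and Nrip1 and the acetyltransferase Kat2b. Nrip1 had 3 of these 5mC peaks, 2 of them over its coding exon (chr16:76292037-76293766 and chr16:76294463-76295678). 5hmC was listed at 2 coregulators at day 5 (8%, beside 5.27%) and at 3 at day 10 (12%, beside 8.32%). Among them Tbl1xr1, a subunit of a corepressor complex, had 5hmC at both days, and Nrip1 had it at day 10. At Tbl1xr1 a day 10 peak (chr3:22142408-22142664) again lay inside the day 5 peak (chr3:22142118-22143105).

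Of 27 genes of ligand metabolism and transport, 3 had a peak (11.1%), beside 15.9% of protein-coding genes. Cyp26b1, which degrades retinoic acid, had 5mC at day 10 (chr6:84585260-84586751) with 5.56 CpG sites per 100 bp, 929 bp from a transcript start. Fkbp5 was counted in this list, although its product acts on the glucocorticoid receptor, which it holds in a low-affinity state. Fkbp5 had 5hmC at day 10 over a noncoding exon with a transcript start (chr17:28428606-28428754). Apart from day 0 5mC, which held none, each list held 1 of the 27 genes (3.70%), beside 6.71% (5mC, day 10), 5.27% (5hmC, day 5) and 8.32% (5hmC, day 10). The enzymes that make retinoic acid (Aldh1a1, Aldh1a2 and Aldh1a3), the deiodinases of thyroid hormone (Dio1, Dio2 and Dio3) and the vitamin D hydroxylases Cyp24a1 and Cyp27b1 had no peak.

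Of 23 known target genes of the receptors, 9 had a peak (39.1%), beside 15.9% of protein-coding genes. 5hmC at day 10 was listed at 6 of these (26.1%, beside 8.32%), among them Cpt1a and Pdk4, targets of the fatty acid receptors, the kinase gene Sgk1, a steroid target, the clock gene Npas2 and the corepressor gene Hr. The peak at Pdk4 was assigned by the authors' symbol only with its midpoint at -7883 bp from the gene start. 5mC at day 10 was listed at Per1, Npas2 and Spp1, 3 of 23, beside 6.71%. The peak of Per1, a clock gene with a glucocorticoid response, lay over its start (chr11:69094366-69095652, 3.65 CpG sites per 100 bp). Spp1 encodes osteopontin, a vitamin D target of bone, and its peak covered a coding exon. Npas2, a target of Rora, was listed in 3 of the 4 lists, with 5hmC at day 5 as well (4.35%, beside 5.27%) and without overlap between its peaks. Tgm2, a retinoic acid target of cartilage, was the single gene with 5mC at day 0 (4.35%, beside 0.556%). The shares over protein-coding genes were not matched to the gene lengths of these 3 lists.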

How the data were processed

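Genomic DNA of 6 enriched ATDC5 samples was represented by 4 lists. Per the study's methods and the labels, the authors trimmed reads with cutadapt, aligned them with BWA to GRCm38, kept mapping quality over 5 and called peaks with MACS 1.4.2 at default settings. The deposited values are peak coordinates with a gene symbol for part of the peaks, without a score or count. The enrichment limit per the file headers is 3-fold for 5mC and 10-fold for 5hmC, whose samples were merged. The control of the calls is not given in the sources used here, and the calls may be differences between progenitors and chondrocytes. Another control, threshold or depth would change number and width of the peaks. The input sample was not analysed here. Empty rows of the 5hmC files (27818 and 25449) were dropped.

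Genes and exons were taken from GENCODE release M21 and sequence from the RefSeq copy of GRCm38, with Python 3.11.15 and pysam 0.24.0. Widths count both end positions. Overlap meant at least 1 bp. Every receptor gene with a peak was named. Some genes of the other lists are counted but not reported by name here. No test was run, because each mark and day had 1 list. The counting was tested on simulated data. The receptor genes, gene lists and strings were chosen with earlier results of these data known. Alternatives varied the window, the use of the symbol, peak width, merging, overlap, background and search window.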

Additional observations from a re-analysis of the deposited data

How the results depend on the processing

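The counts at receptor genes depended mostly on peak width. With only peaks at least as wide as their list's median, a peak remained at 1 (5mC, day 0), 2 (5mC, day 10) and 5 (5hmC, day 5) receptor genes, with 1, 2, 6 and, for 5hmC at day 10, 6 peaks. 5hmC at both days then held for 2 genes, and 5hmC with 5mC at day 10 for 1, as it did with the authors' symbols alone. Under that width limit the coregulators with day 10 5mC were 2, and the target genes with a peak were 0 (5mC, day 0), 1 (5mC, day 10) and 1 (5hmC, day 10). A window of 10000 bp upstream gave 2 ligand metabolism genes with day 10 5mC and 2 target genes with day 5 5hmC. The intronic share of day 0 5mC peaks was 100% with the width limit or with protein-coding transcripts only, and that of day 5 5hmC peaks was 100% by midpoint. Requiring 50% of both peaks left 1 overlapping peak in each 5hmC list. Over all annotated genes the background was 0.337%, 3.47%, 2.82% and 4.61% in the order day 0 5mC, day 10 5mC, day 5 5hmC and day 10 5hmC. Weighted to the receptors' spans it was 1.15%, 11.0%, 9.24% and 14.9%. In 200 bp windows AGGTCA was in 5 5hmC and 1 5mC peaks, and AP-1 in 5 and 0. The other 187 alternative values stayed close to those reported, and none reversed. The cause was not tested, beyond the fewer peaks that a width limit leaves. No paired analysis was possible because each day's 5hmC samples form a single merged list, and for the same reason no replicate could be left out.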
